A study of Mus musculus with 6 samples.

Results

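Endogenous retroviruses of the IAP, ETn, RLTR, ERVB and related name groups were followed in induced pluripotent stem cells (iPSCs) with and without the microRNA miR-34a. The families were taken by the start of their names (IAP, ETn, MMETn, RLTR, ERVB, RMER, MMERVK, MYSERV, MuRRS or MMERGLN), which gave 303 of the 902 repeat rows of the count table. They comprised 187 RLTR, 54 RMER, 25 IAP, 21 ERVB, 5 MMERVK, 4 ETn and MMETn, 3 MYSERV, 2 MuRRS and 2 MMERGLN rows. By the ending of their names, 48 rows are internal parts, and the other 255 were taken as long terminal repeats (LTRs). Each row pools the reads of many copies across the genome, so no row has a single position, and differences in level between rows are not per length.

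Poly(A) RNA was sequenced in 6 libraries, 3 from miR-34a-/- (KO) lines and 3 from wild-type (WT) lines, all C57BL/6. The lines came from fibroblasts of littermate embryos at embryonic day 13.5, reprogrammed with pMX retroviruses carrying mouse Oct4, Sox2 and Klf4, and each line was expanded from a picked colony on irradiated fibroblast feeders. Both genotypes thus carry the same vectors and the same kind of feeder cells. The comparison asks what the loss of miR-34a does to the transcripts of pluripotent cells. The deleted microRNA is shown to identify the perturbation, with its seed (bases 2 to 8) in capitals. It lies on the plus strand at chr4:150068473-150068494 of GRCm38.p6 (RefSeq).
mmu-miR-34a-5p: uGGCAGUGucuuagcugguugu

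A retroviral element that is still complete has an internal part, which encodes gag, pro, pol and in some families env, between LTRs that hold the promoter and the polyadenylation signal. Recombination between LTRs leaves solitary LTRs, which make up most copies of many families. IAP (intracisternal A-particle), ETn (early transposon) with its coding relative MusD, RLTR10, MMERVK, MYSERV and ERVB are betaretrovirus-like elements, while RLTR4, RLTR6, MuRRS and MMERGLN belong with the murine leukemia virus-like gammaretroviral elements. In mouse embryonic stem cells, zinc finger proteins bring TRIM28 and the H3K9 methyltransferase SETDB1 to such elements, and DNA methylation represses IAP in differentiated cells.

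Total counts ranged from 8432597 to 29654855 per library. Of these, 0.714% to 0.784% in KO and 0.829% to 0.927% in WT fell in the 303 rows. Pluripotency markers were high in all 6 libraries, with a summed level of 9505 to 9914 CPM (counts per 1000000 gene counts) in KO and 7969 to 8122 CPM in WT over 12 genes. Of these genes, 9 were called higher and 2 lower, where 26.5% of all genes tested were higher and 24.0% lower. Mir34a itself had at most 2 counts in any library, so it gave no check of the genotype. No pair of libraries agreed within counting error, since chi-square over genes, divided by its degrees of freedom, was 2.25 or more. CPM values use the gene totals of each library after TMM scaling and are given as mean ± SD over n = 3 lines. Nothing in the labels says which lines share an embryo, so the p-values measure the spread between these lines. Reads of repeats can map to several copies and to related families, and the labels do not state how they were counted.

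The retroviral rows changed in both directions and mostly by less than 2-fold. Of the 303 rows, 282 passed the count filter. Of these, 33 were higher and 19 lower in KO with an adjusted p under 0.05 (quasi-likelihood test of edgeR, with Benjamini-Hochberg adjustment over the 756 repeat families that passed the filter). That is 11.7% and 6.74% of the tested rows, against a background of 7.54% higher and 9.66% lower over all families tested. With library scaling taken from the repeat rows alone, all families gave 83 higher and 61 lower in place of 57 and 73, and the members 38 and 18. The median log2 fold change was -0.01 (0.04 with that scaling), against -0.04 over all families. A change of at least 2-fold was reached by 5 of the higher rows and 1 of the lower rows, where the background is 1.72% and 0.397%. The KO and WT libraries did not overlap in 52 rows with KO higher and 51 with KO lower, 18.4% and 18.1% of the tested rows, against 13.8% and 18.5% over all families. The 21 rows that did not pass the filter had at most 39 counts over the 6 libraries, and 2 of them had none. Summed over the 303 rows, the level was 7946 ± 414 CPM in KO and 9174 ± 719 CPM in WT, without overlap. This sum is weighted to rows of many counts, while the median log2 fold change of the tested rows was -0.01. Over all repeat families the sum was 59369 ± 2228 CPM in KO and 63901 ± 2246 CPM in WT, also without overlap.

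Among the 45 internal rows tested, 13 (28.9%) were higher and 3 (6.67%) lower, against 7.54% and 9.66% over all families. Their median was 0.10, and the count of lower internal rows was 6 without KO replicate 3 and 1 without KO replicate 1. The 237 tested LTR rows held 20 higher (8.44%) and 16 lower (6.75%) rows, with a median of -0.04 (0.01 with repeat rows scaled alone). The LTR counts were 10 higher without KO replicate 2 or WT replicate 2, 13 without WT replicate 1 and 9 lower without KO replicate 1. The internal rows that rose span several name groups, from RLTR45-int and RLTR4_MM-int to MuRRS-int and MYSERV6-int. Single libraries moved the counts. Members called higher numbered 21 without KO replicate 2 and 20 without WT replicate 2, and members called lower numbered 10 without KO replicate 1. The summed level of the internal rows was lower in KO, at 4070 ± 360 CPM against 5113 ± 562 CPM in WT, without overlap. That of the LTR rows was 3876 ± 169 CPM in KO and 4061 ± 164 CPM in WT, which overlapped. The internal sum is weighted to rows of many counts. MMERGLN-int was at 1369 ± 93.3 CPM in KO and 1801 ± 282 CPM in WT. MMETn-int was at 430 ± 96.5 and 1017 ± 139 CPM, and ETnERV-int at 220 ± 54.0 and 441 ± 72.0 CPM. Of these rows, MMETn-int alone was called lower. The lower sum thus does not describe most internal rows, of which 13 were called higher and 3 lower.

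**Figure D1:**
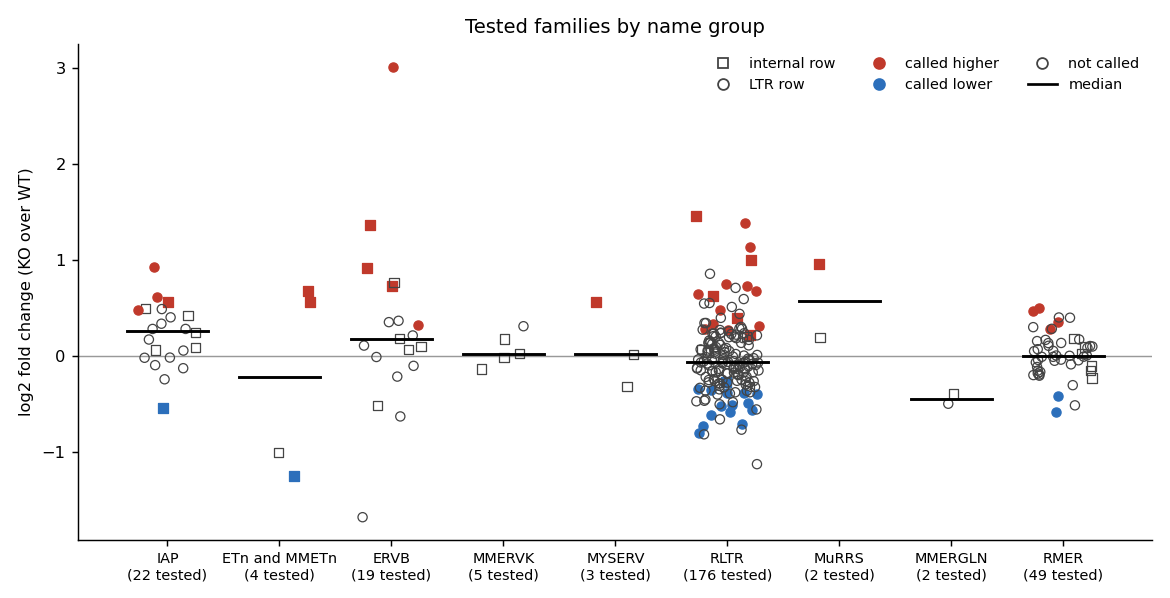
Log2 fold change (KO over WT, vertical axis) of each tested row by name group, with internal rows as squares, LTR rows as circles, rows called higher in red, rows called lower in blue, open symbols for rows not called, and bars at the medians. The IAP median is at 0.26 and the RLTR median at -0.06, and ERVB4_2-LTR_MM stands alone at 3.01.

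The ETn and MusD rows with the highest levels had lower values in KO than in WT. MMETn-int, the internal part of the MusD and ETn elements, stood at 376, 372 and 541 CPM in KO replicates 1 to 3 and at 898, 983 and 1170 CPM in WT replicates 1 to 3. The groups were far apart, and replicate 3 was the highest library of each genotype. MMETn-int fell by 1.25 on the log2 scale (SE 0.208, edgeR adjusted p = 0.024). This call did not survive leaving out KO replicate 1 or 2 or any WT replicate (adjusted p = 0.058 to 0.076), while the log2 fold change stayed between -1.33 and -1.14.

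ETnERV-int, a second internal row of these elements, was at 190, 188 and 283 CPM in KO and 389, 411 and 523 CPM in WT. Its log2 fold change of -1.01 (SE 0.231) did not pass (edgeR adjusted p = 0.057), although no KO library reached any WT library. Without KO replicate 3 it passed, at -1.22 and edgeR adjusted p = 0.00011, and without any other single library it did not. KO replicate 3 was the KO library nearest WT in this row. Leaving it out also removes spread within KO, so that call is no support. Their LTR, RLTRETN_Mm, was at 30.4, 29.9 and 39.6 CPM in KO and 49.2, 54.7 and 67.5 CPM in WT and fell by 0.80 on the log2 scale (SE 0.130, edgeR adjusted p = 0.00076). The summed level of the ETn and MMETn group was 669 ± 151 CPM in KO and 1470 ± 210 CPM in WT.

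The remaining rows of the group went the other way. ETnERV2-int was at 15.1 ± 1.29 CPM in KO and 9.998 ± 1.52 CPM in WT (log2 fold change 0.56, edgeR adjusted p = 0.002). ETnERV3-int was at 3.47 ± 0.503 and 2.10 ± 0.199 CPM (0.68, edgeR adjusted p = 0.022), and lost its call without KO replicate 2 (adjusted p = 0.10), WT replicate 1 (0.077) or WT replicate 2 (0.063). All KO libraries lay above all WT libraries in both rows, whose levels lie far under that of MMETn-int.

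IAPEz-int fell, while other IAP rows rose or were not called. IAPEz-int, the internal part of the most active IAP elements of the mouse, was at 147, 158 and 177 CPM in KO and 213, 232 and 256 CPM in WT. The 2 genotypes did not overlap, and it fell by 0.54 on the log2 scale (SE 0.076, edgeR adjusted p = 4.2e-06). Its LTR, IAPLTR1_Mm, was at 19.3, 19.1 and 25.97 CPM in KO and 18.5, 18.1 and 30.1 CPM in WT. These ranges overlapped (log2 fold change -0.09, SE 0.251, edgeR adjusted p = 0.85). IAPLTR1a_Mm and IAPLTR2_Mm, further IAP LTRs, had log2 fold changes of -0.24 and -0.02 and were not called (edgeR adjusted p = 0.31 and 0.97), nor was IAPEY3-int at 0.24 (0.31).

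IAP rows at lower levels were higher where called. Of 22 IAP rows tested, 4 (18.2%) were higher and 1 (4.55%) lower, against 7.54% and 9.66% over all families. Their median was 0.26, and 9 had all KO libraries above all WT libraries (40.9%, against 13.8% over all families). IAPLTR4 was at 6.63, 7.14 and 7.35 CPM in KO and 4.18, 3.37 and 3.22 CPM in WT, and rose by 0.93 on the log2 scale (edgeR adjusted p = 9.8e-05). IAP-d-int, an internal row, was at 20.2 ± 0.446 CPM in KO and 13.4 ± 2.36 CPM in WT (0.57, edgeR adjusted p = 0.00088). IAPEY2_LTR and IAPEY4_LTR were called at 0.48 and 0.61 (edgeR adjusted p = 0.026 and 0.040), of which IAPEY4_LTR overlapped between the genotypes. IAPEY2_LTR lost its call without KO replicate 1 or 2 or WT replicate 1 or 2 (adjusted p = 0.051 to 0.26), and IAPEY4_LTR without KO replicate 2 or 3 or WT replicate 1 or 2 (0.084 to 0.30). Without KO replicate 2, WT replicate 1 or WT replicate 2, 2 IAP rows were called higher. Summed over the group, IAP counts were 2.01 ± 0.052 internal per LTR count in KO and 2.94 ± 0.265 in WT, a ratio carried by IAPEz-int. Without that row it was 0.515 ± 0.058 in KO and 0.471 ± 0.065 in WT, and the libraries overlapped.

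An ERVB row had the largest rise of the members tested. ERVB4_2-LTR_MM was at 30.7, 33.0 and 33.9 CPM in KO and 3.15, 3.62 and 5.41 CPM in WT. The lowest KO library was several times the highest WT library, and the row rose by 3.01 on the log2 scale (SE 0.145, edgeR adjusted p = 7.3e-17). Its internal part ERVB4_2-I_MM was at 17.2, 17.6 and 19.2 CPM in KO and 8.64, 10.7 and 9.66 CPM in WT, a smaller rise of 0.91 (SE 0.123, edgeR adjusted p = 1.9e-06). The count of internal reads per LTR read was accordingly 0.553 ± 0.019 in KO and 2.50 ± 0.626 in WT.

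ERVB3_1-I_MM was at 5.05 ± 1.37 CPM in KO and 1.82 ± 0.438 CPM in WT (1.36 on the log2 scale, edgeR adjusted p = 3.5e-05). Both ERVB4_1B rows rose, the internal part by 0.73 (edgeR adjusted p = 0.011) and the LTR by 0.33 (0.0044). The internal row lost its call without KO replicate 2 (adjusted p = 0.081) or WT replicate 2 (0.051), and the LTR without KO replicate 1 (0.063). Altogether 5 of 19 tested ERVB rows (26.3%) were higher and 0 lower by edgeR, against 7.54% and 9.66% over all families. At an unadjusted edgeR p under 0.05, 2 were lower, while DESeq2 called 1 lower and limma voom 0. Without KO replicate 3, 2 were called lower, and without WT replicate 2, 1. All KO libraries lay above all WT libraries in 6 rows and under them in 2. That is 31.6% and 10.5%, against 13.8% and 18.5% over all families. Of the 2 rows with KO under WT, 1, chosen after its values were seen, was ERVB4_1C-LTR_Mm. It was at 23.4, 18.0 and 59.9 CPM in KO and 74.6, 95.5 and 133 CPM in WT. KO replicate 3 stood well above the other KO libraries, and the log2 fold change of -1.68 (SE 0.572) was not called (edgeR adjusted p = 0.15). Without KO replicate 3 it was -2.29 (edgeR adjusted p = 0.039), which is no support, since that run leaves out the KO library nearest WT. DESeq2 called ERVB4_1C-LTR_Mm with all libraries (-1.59, adjusted p = 0.043). ERVB7_1-LTR_MM, the most abundant ERVB LTR, was at 84.4, 75.1 and 136 CPM in KO and 113, 131 and 206 CPM in WT, which overlap (-0.63, edgeR adjusted p = 0.37).

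**Figure D2:**
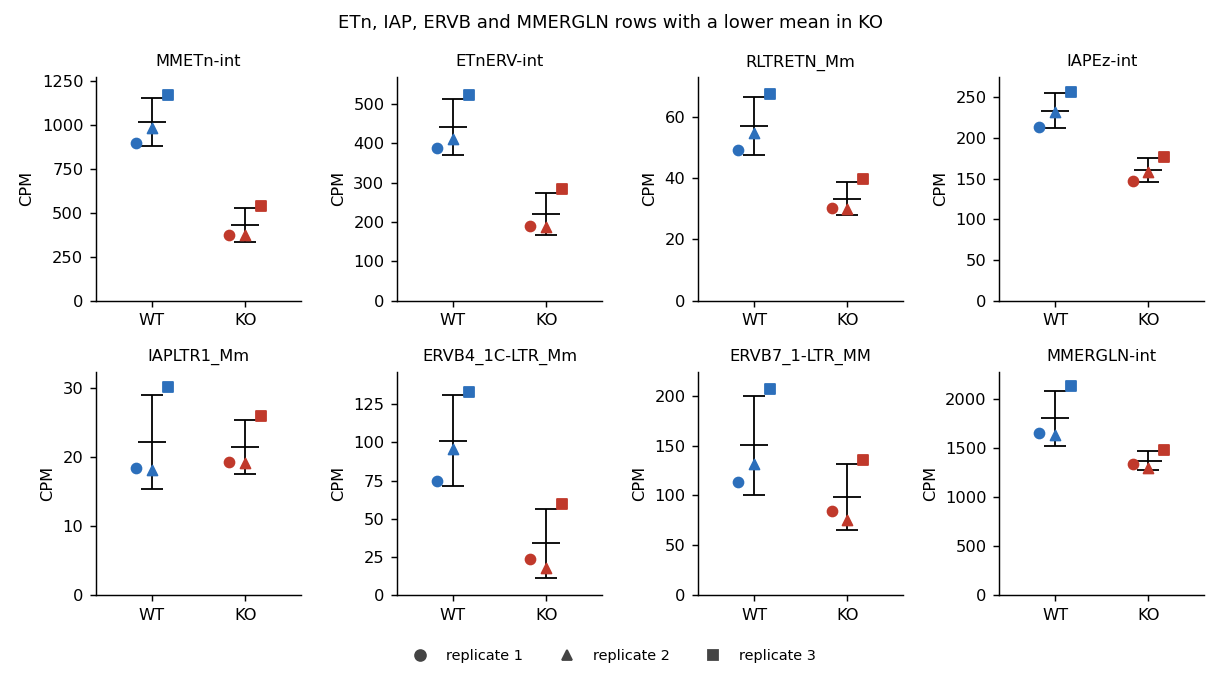
CPM (vertical axes, from 0) of 8 rows with a lower mean in KO, one symbol per library whose shape gives the replicate number, and bars at mean ± SD over 3 lines. MMETn-int, ETnERV-int, RLTRETN_Mm, IAPEz-int, ERVB4_1C-LTR_Mm and MMERGLN-int do not overlap between the genotypes, while IAPLTR1_Mm and ERVB7_1-LTR_MM do, and replicate 3 is the highest library of both genotypes in all 8 panels.

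No label links the lines numbered 3. Of 282 rows tested, 16 were at least 1.2 times higher in replicate 3 than in the mean of replicates 1 and 2 in both genotypes, 8 of them at a mean of 10 CPM or more. The same count was 13 for KO replicate 2 with WT replicate 3 and 1 to 7 for the other pairings of a KO with a WT library. Without regard to size, KO replicate 3 and WT replicate 3 were both the highest of their genotype in 50 rows, KO replicate 2 and WT replicate 3 in 61, and KO replicate 2 and WT replicate 1 in 55. The elevation in the libraries numbered 3 was 1.70 times in KO and 1.69 times in WT for ERVB7_1-LTR_MM, 2.89 and 1.57 times for ERVB4_1C-LTR_Mm, and 1.49 and 1.31 times for ETnERV-int. It was 1.35 and 1.65 times for IAPLTR1_Mm and 1.45 and 1.24 times for MMETn-int. Without both of these libraries, MMETn-int, ETnERV-int, ERVB4_1C-LTR_Mm and ERVB7_1-LTR_MM had log2 fold changes of -1.34, -1.08, -2.04 and -0.61 (2 libraries against 2). This setting was added once the values were known. It removes the libraries that stood highest in these rows, and with them spread within each genotype, so its calls are no support and are not given.

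Of 176 RLTR rows tested, 16 (9.09%) were higher and 15 (8.52%) lower in KO. The 10 internal rows held 5 higher and 1 lower, and the 166 LTR rows 11 higher and 14 lower (6.63% and 8.43%), near the background of 7.54% and 9.66%. The largest rise among them was that of RLTR45-int, an internal row. RLTR45-int was at 156, 147 and 170 CPM in KO and 55.5, 55.7 and 60.4 CPM in WT. The libraries of each genotype lay close together and far from the other genotype, and the row rose by 1.46 on the log2 scale (SE 0.077, edgeR adjusted p = 5.4e-16). Its LTR RLTR45 was at 25.5, 28.6 and 32.9 CPM in KO and 16.1, 17.1 and 18.2 CPM in WT (0.75, edgeR adjusted p = 6.3e-06). RLTR19-int, at rank 4 of the members by share of counts, had a log2 fold change of -0.32 and was not called (edgeR adjusted p = 0.051). In 11 of 17 alternative runs it was called lower, DESeq2 and limma voom among them.

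RLTR4_MM-int, the internal part of elements close to murine leukemia virus, was at 234, 248 and 241 CPM in KO and 116, 118 and 128 CPM in WT. It rose by 1.00 on the log2 scale (SE 0.068, edgeR adjusted p = 3.6e-13). Its LTR RLTR4_Mm, at 25.3, 24.0 and 26.9 CPM in KO and 24.3, 26.6 and 32.1 CPM in WT, overlapped between the genotypes (-0.13, SE 0.107, edgeR adjusted p = 0.46). The counts do not separate these elements from reprogramming vectors built on a murine leukemia virus, and the genes those vectors carry were also higher in KO. Pou5f1 (Oct4), Sox2 and Klf4 were at 1182 ± 81.9, 379 ± 9.44 and 635 ± 34.7 CPM in KO and 870 ± 71.8, 316 ± 1.63 and 447 ± 13.7 CPM in WT. Their log2 fold changes were 0.44, 0.26 and 0.51. Pluripotency genes not on the vectors moved as well. Tdgf1, Esrrb and Nanog, among those called higher, had 0.56, 0.45 and 0.31, and Lin28a and Utf1, both called lower, -0.75 and -0.23. The part of vector transcripts in the rise of RLTR4_MM-int was not tested.

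Of the gammaretroviral names given above, RLTR6 and MuRRS also held rows that rose, while both MMERGLN rows had lower means in KO and were not called. RLTR6B_Mm, an LTR, was at 9.47, 8.07 and 12.2 CPM in KO and 3.24, 3.62 and 4.25 CPM in WT (log2 fold change 1.38, SE 0.171, edgeR adjusted p = 4e-07). RLTR6-int was at 56.6 ± 1.82 against 43.1 ± 1.74 CPM (0.40, edgeR adjusted p = 0.001), while RLTR6_Mm, at -0.39 on the log2 scale, was not called (edgeR adjusted p = 0.31). MuRRS-int was at 13.6, 13.8 and 13.0 CPM in KO and 7.497, 5.75 and 7.14 CPM in WT (0.95, SE 0.133, edgeR adjusted p = 3e-06). Its relative MuRRS4-int had 0.19 (edgeR adjusted p = 0.23).

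RLTR1B-int, at 495 ± 35.9 CPM in KO and 425 ± 30.6 CPM in WT, was called higher by 0.22 (edgeR adjusted p = 0.022). It lost the call without KO replicate 3, WT replicate 1 or WT replicate 2 (adjusted p = 0.11, 0.18 and 0.10), and also with DESeq2. Its LTR RLTR1B was at 19.8 ± 1.95 and 21.3 ± 4.00 CPM (-0.13, edgeR adjusted p = 0.50). RLTR13D5, an LTR known as an enhancer in mouse trophoblast stem cells, was at 4.86, 6.04 and 5.88 CPM in KO and 2.50, 1.87 and 2.96 CPM in WT. It rose by 1.14 on the log2 scale (SE 0.186, edgeR adjusted p = 3.8e-05). RLTR9E, of an LTR group bound by pluripotency factors in embryonic stem cells, was at 107 ± 2.04 CPM in KO and 84.8 ± 9.16 CPM in WT (0.33, edgeR adjusted p = 0.0031).

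**Figure D3:**
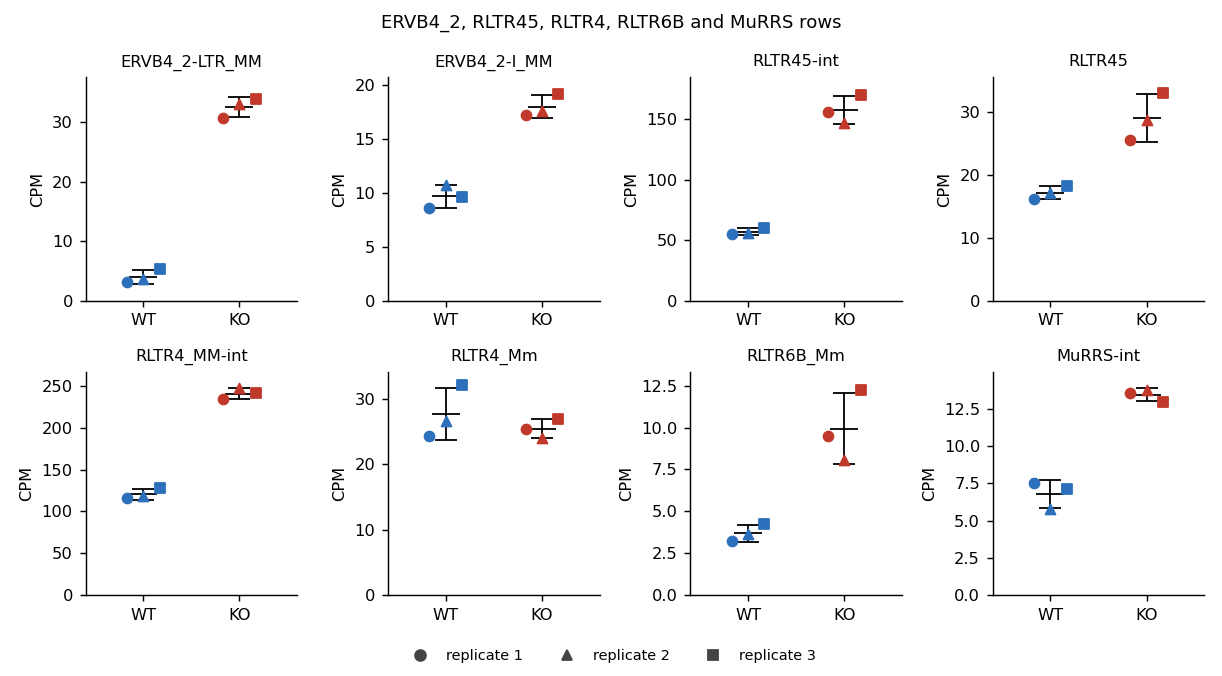
CPM (vertical axes, from 0) of 8 rows in the 3 WT and 3 KO libraries, one symbol per library whose shape gives the replicate number, and bars at mean ± SD. RLTR4_Mm overlaps between the genotypes, and in the other panels every KO library lies above every WT library.

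The subgroups of RLTR and RMER, formed by the number in the name, were looked at after the values were seen. Over both groups, 124 of 225 tested rows (55.1%) had a log2 fold change below 0, against 58.7% over all families. Several subgroups were split, with 7 rows above and 5 below 0 in RLTR9, 3 and 4 in RLTR30, 3 and 3 in RMER6, 3 and 5 in RMER16, and 3 and 5 in RLTR1. Others lay mostly on 1 side, which was not tested. All 8 tested RLTR12 rows had a negative log2 fold change, with a median of -0.32, and 4 of them were called lower. RLTR12D, RLTR12BD_Mm, RLTR12B and RLTR12E had log2 fold changes of -0.61, -0.56, -0.48 and -0.38. Without KO replicate 1, RLTR12D, RLTR12B and RLTR12E were not called (adjusted p = 0.051, 0.11 and 0.088). Without KO replicate 1 the count of RLTR12 calls was thus 1, and over all RLTR rows 7 were lower in place of 15. RLTR20 had 13 of 16 rows below 0, with RLTR20A called lower and RLTR20C1_MM called higher. RLTR20A lost its call without KO replicate 2 (adjusted p = 0.056) or WT replicate 1 (0.12), and RLTR20C1_MM without any one library but KO replicate 3 (0.065 to 0.11). In the other direction, 9 of 10 RMER17 rows, 8 of 10 RLTR10 rows, 5 of 6 RLTR44 rows and 5 of 5 RLTR26 rows were above 0.

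RLTR20A4, the most abundant RLTR LTR, was at 100.4 ± 3.85 CPM in KO and 110.1 ± 8.38 CPM in WT (-0.13, edgeR adjusted p = 0.28). Of the rows in subgroups above 0, RLTR10D, RLTR44C and RLTR44-int were called higher, at 0.73, 0.64 and 0.62, and kept the call in each alternative run. RLTR10D2, RMER17D2 and RMER17B2 were also called higher, and without KO replicate 2 they were not (adjusted p = 0.080, 0.062 and 0.23), nor without WT replicate 2 (0.078, 0.058 and 0.24). RLTR10D2 lost its call also without KO replicate 1 (adjusted p = 0.060) or WT replicate 1 (0.12), and RMER17B2 without KO replicate 1 (0.14). Of the RLTR26 rows, 0 were called by edgeR, DESeq2 or limma voom, and 0 had an unadjusted edgeR p under 0.05. RLTR49 was lower, at 8.63 ± 0.903 CPM in KO and 14.2 ± 1.27 CPM in WT (-0.71, edgeR adjusted p = 0.00019). RLTR13 ranged from -0.77 to 1.14 over 22 rows, with RLTR13D5 called higher and RLTR13G lower. RLTR10, RLTR10-int and RLTR10C had log2 fold changes of 0.14, 0.20 and 0.22 and were not called (edgeR adjusted p = 0.57, 0.20 and 0.23). Over all 49 RMER rows tested, 4 (8.16%) were higher and 2 (4.08%) lower, against 7.54% and 9.66% over all families, with a median of 0.01. Without KO replicate 2 these counts were 1 and 4, without WT replicate 2 they were 1 and 2, and without KO replicate 1 they were 2 and 2. RMER19B, the most abundant RMER LTR, was at 168 ± 8.04 CPM in KO and 176 ± 1.79 CPM in WT (-0.07, edgeR adjusted p = 0.57), and RMER15-int at 34.2 ± 3.40 and 40.1 ± 2.92 CPM (-0.23, edgeR adjusted p = 0.11).

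**Figure D4:**
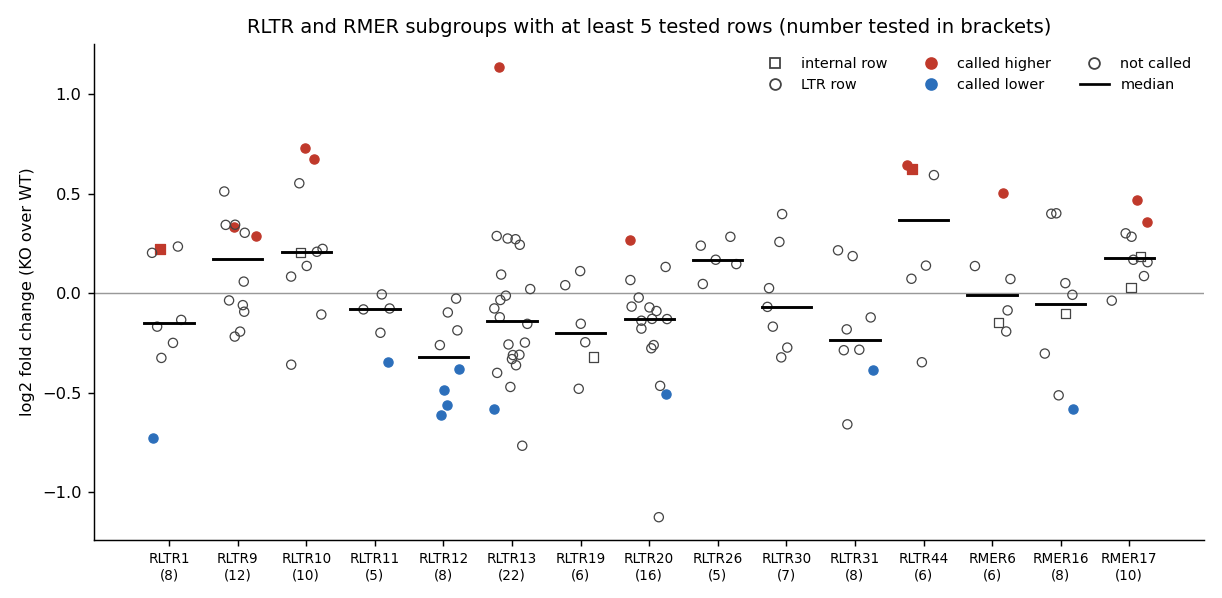
Log2 fold change (KO over WT, vertical axis) of the tested RLTR and RMER rows, grouped by the number in the name where at least 5 rows were tested, with squares for internal rows, circles for LTR rows, colour for calls and bars at the medians. RLTR12 lies wholly below 0, with its median at -0.32, and RLTR44 has its median at 0.37.

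MMERGLN, MMERVK and MYSERV completed the set. MMERGLN-int, the row with the most counts of all members, was at 1336, 1298 and 1475 CPM in KO and 1647, 1629 and 2125 CPM in WT. Every KO library was under every WT library, yet the log2 fold change of -0.40 (SE 0.116) was not called (edgeR adjusted p = 0.07). It was called without WT replicate 1, 2 or 3 (adjusted p = 1.3e-07, 0.0035 and 0.0022), but not without KO replicate 1, 2 or 3. MMERGLN_LTR, at -0.50, was not called either (edgeR adjusted p = 0.12), and passed without KO replicate 3 or WT replicate 1 (adjusted p = 0.017 and 4.1e-05). With repeat rows scaled alone, 0 of the 2 MMERGLN rows were lower at an unadjusted edgeR p under 0.05, against 2 with the main scaling. Of the 5 MMERVK rows, 0 were called by edgeR, DESeq2 or limma voom, and 0 had an unadjusted edgeR p under 0.05. MMERVK10C-int and MMERVK9C_I-int had -0.02 ± 0.095 and 0.03 ± 0.080 (log2 fold change ± SE), and MMERVK10D3_LTR 0.31 ± 0.266. MYSERV6-int was at 50.2, 55.6 and 56.0 CPM in KO and 36.5, 35.4 and 37.3 CPM in WT and rose by 0.56 on the log2 scale (edgeR adjusted p = 2.1e-05), while MYSERV-int had -0.32 (edgeR adjusted p = 0.21).

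Internal rows and LTR rows of the same element did not always move together. Of 33 pairs matched by name or by known element, 29 had both rows tested. Both rows were called higher in 3 pairs (RLTR45, ERVB4_2 and ERVB4_1B) and both lower in 1 (MMETn-int with RLTRETN_Mm). The internal row alone was called in 6 pairs and the LTR row alone in 2, and no pair was called in opposite directions. The ratio of internal to LTR counts, which does not depend on library scaling, was 9.51 ± 0.723 in KO and 4.40 ± 0.387 in WT for RLTR4. For RLTR45 it was 5.47 ± 0.561 against 3.34 ± 0.095. It was 12.8 ± 0.735 against 17.8 ± 0.479 for MMETn-int over RLTRETN_Mm and 7.57 ± 0.744 against 10.9 ± 2.21 for IAPEz-int over IAPLTR1_Mm. In these 4 pairs the ratios of the 2 genotypes did not overlap. Over the 29 pairs, the ratios did not overlap in 6 pairs with KO lower and 5 with KO higher, and the median difference of the log2 fold changes, internal minus LTR, was -0.06.

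**Figure D5:**
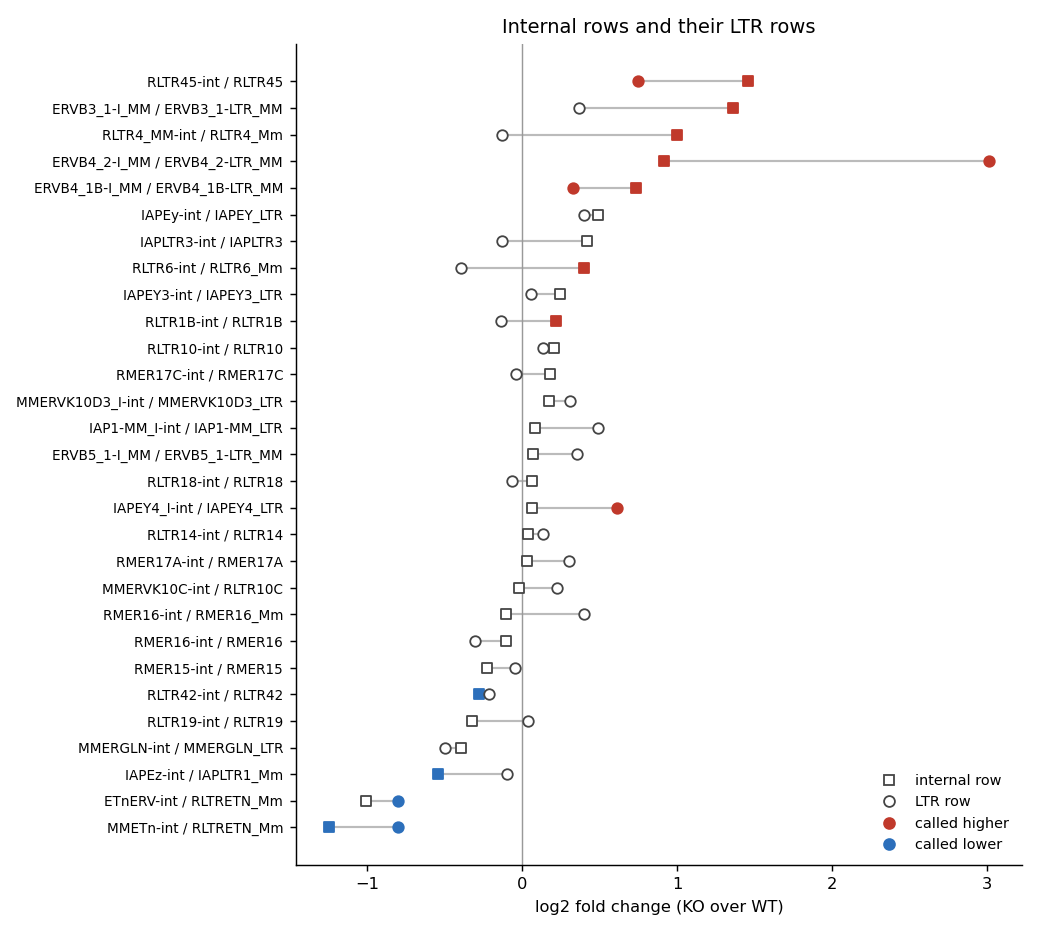
Log2 fold change (KO over WT, horizontal axis) of the internal row (square) and the LTR row (circle) of 29 pairs, red where called higher, blue where called lower and open where not called. ERVB4_2 has its LTR at 3.01 and its internal part at 0.91, while RLTR4 has its internal part at 1.00 and its LTR at -0.13.

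Genes tied to the repression of these elements also moved in both directions. The list, called repressor genes here, also holds Tet1 and Tet2, which encode enzymes of DNA demethylation, and the restriction factor genes Apobec3 and Samhd1. Tet2 was among the higher genes (0.48, edgeR adjusted p = 9.1e-07) and Samhd1 among the lower (-0.24, 0.018), while Tet1 and Apobec3 were not called. Of 44 matched repressor genes, 41 were tested, and 8 were higher and 17 lower in KO (edgeR, adjusted over all genes tested), against a background of 26.5% higher and 24.0% lower genes. The de novo DNA methyltransferase gene Dnmt3b was at 173, 154 and 176 CPM in KO and 547, 495 and 517 CPM in WT and fell by 1.64 on the log2 scale (edgeR adjusted p = 7.3e-14). Dnmt1, Dnmt3a and Dnmt3l, which encode the maintenance methyltransferase, a further de novo enzyme and its cofactor, had log2 fold changes of -0.05, -0.05 and -0.03 and were not called (edgeR adjusted p = 0.42, 0.54 and 0.71). Suv39h1, an X-linked H3K9 methyltransferase gene, and Zfp57, a zinc finger gene acting with TRIM28, rose by 1.37 and 0.98.

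Several other H3K9 methylation genes were lower, but not all genes of the list were. Atf7ip, Mphosph8 and Fam208a were not called (0.03, -0.34 and -0.15), and Rex2, Zfp819 and Chaf1a were higher, at 1.23, 0.61 and 0.25. Suv39h2, the paralog of Suv39h1, had a log2 fold change of -0.69, and Cbx1, Cbx3 and Cbx5, which encode the HP1 readers of this mark, had -0.51, -0.62 and -0.60. Atrx and Smchd1, which encode chromatin proteins of silenced regions, had -0.50 and -0.83. These 6 genes kept their calls in each alternative run. Ehmt1 and Ehmt2, a further pair of H3K9 methyltransferase genes, were called at -0.16 and -0.17 (edgeR adjusted p = 0.022 and 0.022). Neither was called without WT replicate 1 (adjusted p = 0.14 and 0.095) or WT replicate 2 (0.059 and 0.064), nor Ehmt1 without KO replicate 2 (0.079) or Ehmt2 without KO replicate 3 (0.091).

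Setdb1 fell by 0.15 on the log2 scale (edgeR adjusted p = 0.018), and Trim28 and Uhrf1, whose product guides DNMT1 to replicated DNA, had 0.14 and 0.16 (edgeR adjusted p = 0.045 and 0.021). Setdb1 lost its call without KO replicate 2 (adjusted p = 0.061) or WT replicate 1 (0.090), and Uhrf1 without KO replicate 1 (0.13), WT replicate 2 (0.10) or WT replicate 3 (0.062). Trim28 kept it only without KO replicate 3, and had adjusted p = 0.052 to 0.20 without any other single library. Zfp809, which silences murine leukemia virus-like elements, was at 14.7 ± 0.420 CPM in KO and 13.4 ± 1.99 CPM in WT (0.17, edgeR adjusted p = 0.19). Without KO replicate 2 the number of lower repressor genes was 10.

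Fibroblast genes, which feeders could bring, moved with genotype as well. Of 22 tested fibroblast markers of 24, 13 were lower and 4 higher in KO, against a background of 24.0% lower and 26.5% higher genes. Their summed level was 3038 to 3357 CPM in KO and 3391 to 3752 CPM in WT. Postn, Tagln and Col1a1 were among the lower, at log2 fold changes of -3.03, -1.81 and -0.99. The 4 higher were S100a4, Timp1, Twist1 and Vim, at 1.62, 0.70, 0.54 and 0.44. Fn1, the marker with the highest level, was not called (-0.08). No marker was at 0 in all 6 libraries, and Lum and Fap had 0 counts in the KO libraries and at most 3 in any WT library. Their part in the lower ETn, IAP and MMERGLN rows was not tested. In bulk RNA, fewer cells of a type and less RNA per cell cannot be told apart.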

How the data were processed

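Poly(A) RNA of 6 iPSC lines was measured. The deposited values are raw counts per gene and per repeat family made by the authors. Per the submitters' processing notes, the mm10 build, featureCounts 1.4.5 and TopHat2 2.0.11 were used. The sources used here do not state how strand and reads with several matches were handled. A further table with 6 columns that match no label was not used.

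Members and gene lists were chosen with earlier results of these data known. edgeR 4.0.16 (R 4.3.3; quasi-likelihood, robust, filterByExpr) was run on the repeat families, scaled by the totals and TMM factors of the gene rows, with Benjamini-Hochberg adjustment over all families tested. A row was called at adjusted p under 0.05, and SE is the log2 fold change over the root of F. Members named were the 12 called rows with the largest change among those with a mean of at least 1 CPM, the most abundant internal and LTR row of each name group, and a fixed list. Members named beyond these were chosen after their values were seen. RLTR13 and RLTR9 stand in the table as subfamilies, and IAPLTR4_I was counted as internal.

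At these depths 3 counts correspond to 0.107 to 0.375 CPM. Alternatives covered scaling, the count filter, DESeq2 1.42.0, limma 3.58.1 voom, the replicate number as a block and each library left out. The scripts were tested on simulated data.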

Additional observations from a re-analysis of the deposited data

How the results depend on the processing

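Over the 17 alternatives to the main settings, 18 of the 33 members called higher and 9 of the 19 called lower kept their call in each, and 0 of them reversed. Those kept include ERVB4_2-LTR_MM, RLTR45-int, RLTR4_MM-int, MuRRS-int, IAPLTR4, IAPEz-int and RLTRETN_Mm. With DESeq2, 21 members were higher. Rows that lost their call with DESeq2 include RLTR1B-int, ETnERV3-int, IAPEY2_LTR, IAPEY4_LTR, ERVB4_1B-I_MM, RLTR10D2 and RLTR20A, while ETnERV-int and ERVB4_1C-LTR_Mm gained one. With genes and families in 1 fit, 41 members and 113 of all repeat families were lower. With repeat rows scaled alone, the median of the members was 0.040. The cause of these shifts was not tested. The log2 difference of the internal to LTR ratio of IAP, -0.54, was 0.13 without IAPEz-int, a choice made after the data were seen. Leaving out 1 library at a time, which leaves fewer samples, gave 20 to 30 members higher and 10 to 25 lower, 38 to 58 of all families higher and 26 to 79 lower, a members' median of -0.073 to 0.039, and 10 to 18 repressor genes lower. All-family lower calls numbered 26 without KO replicate 1 and 47 without WT replicate 1.

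The replicate numbers share nothing by their labels. Deviations of same-numbered KO and WT libraries correlated at -0.01, -0.04 and 0.13 over families, and not every library correlated best with its own number. Over genes they correlated at 0.09, -0.02 and 0.11, and there the libraries numbered 1 and 3 correlated best with their own number. With the replicate number as a block, 36 members were higher and 28 lower, and ETnERV-int, MMERGLN-int, MMERGLN_LTR and ERVB7_1-LTR_MM were called lower.

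At 3 lines per genotype and as few as 8432597 counts, small changes in rows of few counts were not detectable.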

Other observations

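Among RLTR and RMER rows not described above, which were chosen after their values were seen, several LTRs were lower in KO. RLTR31D_MM was at 60.0 ± 2.50 CPM in KO and 78.6 ± 2.30 CPM in WT (n = 3 each, log2 fold change -0.38, edgeR adjusted p = 0.00076). RMER4A was at 39.7 ± 3.15 CPM in KO and 52.8 ± 4.603 CPM in WT (-0.42, edgeR adjusted p = 0.0014). RMER16C and RLTR1C fell by 0.58 and 0.73 on the log2 scale. These 4 rows kept their calls in each alternative run. RMER6BA rose by 0.50, and lost its call without KO replicate 2 (edgeR adjusted p = 0.16).

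The counts of the members were unevenly spread over the 303 rows. MMERGLN-int held 17.2% of them in KO and 19.5% in WT, MMETn-int 5.38% and 11.1%, RLTR1B-int 6.22% and 4.63%, and RLTR4_MM-int 3.04% and 1.32% (means over 3 libraries, not per length). The first 10 rows held 50.3%.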
